A study of Homo sapiens with 36 samples.

Results

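The stress regulators ATF4 and CHOP and 8 genes that act beside or below them were followed across 36 RNA-seq libraries of HepG2-IGF1R-KO cells. They are the transcription factors ATF4, ATF3, DDIT3 (the gene of CHOP) and CEBPB, and their downstream genes TRIB3, PPP1R15A, DDIT4, SESN2, ASNS and CHAC1. They were chosen by name, and all 10 of them were found among the 57771 genes of the deposited count table and passed the filter on low counts, as did 17983 genes in all. Each library belonged to 1 of 4 groups of 9. Cells in insulin-resistant medium had been kept for 72 h with 20 mM glucose, 1 nM human insulin and 3 fatty acids (oleic, linoleic and palmitic, at 0.5 mM), and were then given 3 nM insulin for 18 h or left untreated. Cells in normal medium, DMEM with serum, are also labelled 72 h, and were given the same 3 nM insulin for 18 h or left untreated. Whether the insulin of the insulin-resistant medium was withdrawn before the 18 h is not given in the sources used here, so untreated cells of that medium may still have been exposed to it.

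All groups shared the genetic background. HepG2 is a human hepatoma line that keeps many hepatocyte genes, and in these cells the gene of the IGF-1 receptor, IGF1R, had been knocked out; how many clones were used is not given in the sources used here. IGF1R transcripts were present in every library at 77.8 to 134 CPM, and with no unedited library in the series this does not check the knockout. The labels call all replicates biological, without saying whether they came from separate cultures; if they did not, p-values measure technical spread.

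The integrated stress response starts when a kinase phosphorylates the translation factor eIF2: PERK for unfolded protein in the endoplasmic reticulum, GCN2 for uncharged tRNA, PKR for double-stranded RNA and HRI for haem loss and mitochondrial stress. Most translation then slows while the ATF4 transcript, whose upstream reading frames delay the ribosome, is translated more. ATF4 protein activates genes of amino acid synthesis and uptake, and with CHOP it drives genes that restart translation or, under lasting stress, favour cell death. Insulin also raises ATF4 output through mTORC1 in several cell types. The transcript levels given here say nothing of translation or of ATF4 protein.

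The libraries differed in ways the groups do not explain, and the members were therefore read in 3 sets of libraries. The collagen gene COL1A1 was at 0.784 to 1.70 CPM in 6 libraries, against 8070 to 31900 CPM in the other 30. The 6 were untreated replicates 1 to 3 of insulin-resistant medium and insulin-stimulated replicates 4 to 6 of normal medium. The 18 stromal markers summed to 152 to 196 CPM in each of those libraries, where DCN, POSTN, TWIST1 and FAP were at 0, and elsewhere to 22800 to 77700 CPM. All 22 hepatocyte markers had a median over 1 CPM in every set of libraries, and they summed to 34500 to 39700 CPM where COL1A1 was low and elsewhere to 12700 to 31400 CPM. The stromal levels of the 30 libraries go against a label of HepG2 cells alone, and their source was not tested. Another 12 libraries had fibronectin, FN1, at 30800 to 37300 CPM, against 8410 to 16600 CPM in the other 24: insulin-stimulated replicates 4 to 9 and untreated replicates 7 to 9 of insulin-resistant medium, and untreated replicates 7 to 9 of normal medium. Insulin-stimulated cells in normal medium had no such library. Stromal markers summed to 58800 to 77700 CPM and hepatocyte markers to 12700 to 22200 CPM in these 12, and to 22800 to 52100 CPM and 13900 to 31400 CPM in the remaining 18. Results are given for all 36 libraries, for the 30 with COL1A1 at 10 CPM or more, and, where they differ, for the 18 that were in neither set. Depth ran from 26.6M to 116.8M counts per library with a median of 64.6M, which leaves counting error small beside the spread between libraries for every member except CHAC1. In bulk RNA a change in the number of cells of a type cannot be told apart from a change in RNA per cell.

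Promoters are shown for the 4 members whose start sites carried a sequence recognised by the factors under study, since ATF3 and PPP1R15A changed with insulin by more than 1 on the log2 scale, ASNS by less, and CHAC1 was not called. The windows, from RefSeq on GRCh38.p14, run from 250 bases before to 50 bases after the first listed start and are printed 5′ to 3′ on the gene's strand. Capitals mark TGATGNAA, the composite element bound by ATF4 with a C/EBP partner, read on either strand, or TGACGTCA, the palindromic cAMP response element bound by ATF and CREB family dimers. The ATF3 window is chr1:212565157-212565456, plus strand, the ASNS window chr7:97872359-97872658, minus strand, the CHAC1 window chr15:40953221-40953520, plus strand, and the PPP1R15A window chr19:48872171-48872470, plus strand.
ATF3: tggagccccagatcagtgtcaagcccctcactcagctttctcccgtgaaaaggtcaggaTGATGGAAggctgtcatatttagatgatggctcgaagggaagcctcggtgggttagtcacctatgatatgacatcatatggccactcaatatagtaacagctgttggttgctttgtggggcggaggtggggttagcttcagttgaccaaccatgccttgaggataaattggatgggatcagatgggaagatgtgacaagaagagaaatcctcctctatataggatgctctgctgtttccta
ASNS: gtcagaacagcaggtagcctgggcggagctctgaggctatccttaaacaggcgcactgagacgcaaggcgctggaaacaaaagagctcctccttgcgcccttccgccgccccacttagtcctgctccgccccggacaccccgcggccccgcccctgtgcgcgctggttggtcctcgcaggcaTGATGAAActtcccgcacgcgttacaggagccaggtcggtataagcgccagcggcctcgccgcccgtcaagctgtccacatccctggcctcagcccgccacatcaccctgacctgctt
CHAC1: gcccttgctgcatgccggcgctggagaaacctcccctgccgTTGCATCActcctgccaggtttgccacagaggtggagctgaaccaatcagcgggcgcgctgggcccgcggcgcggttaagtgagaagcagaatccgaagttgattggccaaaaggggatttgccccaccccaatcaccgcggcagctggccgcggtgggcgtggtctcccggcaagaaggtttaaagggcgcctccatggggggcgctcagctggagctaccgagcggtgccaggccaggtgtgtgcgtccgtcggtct
PPP1R15A: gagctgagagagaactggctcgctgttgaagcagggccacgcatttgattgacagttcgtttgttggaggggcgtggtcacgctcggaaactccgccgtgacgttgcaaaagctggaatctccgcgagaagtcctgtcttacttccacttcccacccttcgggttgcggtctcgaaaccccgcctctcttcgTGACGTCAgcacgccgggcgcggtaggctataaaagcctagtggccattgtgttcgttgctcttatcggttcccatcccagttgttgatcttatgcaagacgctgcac
The composite element lay 191 bases before the start of ATF3 and 68 bases before that of ASNS. In CHAC1 it lay 209 bases before the start on the opposite strand, where it reads TGATGCAA, and the printed strand shows TTGCATCA. It was found in 3 of 10 members, in 6 of the 24 other ATF4 targets with a promoter in the table, and in 3.67% of 27305 promoters. The cAMP response element of PPP1R15A lay 58 bases before the start, and 1.98% of promoters held one. The endoplasmic reticulum stress response element, searched in its full consensus and bound by ATF6 with NF-Y, was in no member window, in 4 of 15 genes of the IRE1 and ATF6 branches and in 0.0806% of promoters. ATF4, DDIT3, CEBPB, TRIB3, DDIT4 and SESN2 had no exact match to these letters in their windows, which says nothing about sites elsewhere. The DDIT3 window holds a stretch that differs from the endoplasmic reticulum element only in its last base. Apart from that stretch, near matches were not searched in any window, and others may be present. The absence of exact letters therefore does not exclude a working site.

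Insulin in normal medium gave higher levels of 8 of the 10 members, called at an adjusted p under 0.05 in edgeR's quasi-likelihood test with Benjamini-Hochberg adjustment over all genes. No member was called lower. DDIT3, PPP1R15A, TRIB3, CEBPB, ATF3 and SESN2 had changes of 1.18 to 1.65 on the log2 scale, while ATF4 and ASNS had smaller ones. Over all genes tested, 24.9% were called higher and 10.2% lower. That is 4484 and 1843 genes, a split that became 3452 and 2434 with DESeq2's size factors. The median log2 fold change was 1.18 over the members and 0.03 over all genes. In the 30 libraries 7 members were called higher (15.4% of genes), and in the 18 libraries 9 members (21.5% of genes). Libraries in sets of consecutive replicates resembled each other, with a median correlation of 0.869 against 0.202 for other pairs of a group. The p-values that take each library as a unit can therefore be too small. With each such set summed, 6 members were called higher among 360 genes. Without the libraries low in COL1A1 the summed sets gave 4 members among 329 genes. In this comparison stromal markers had a median log2 fold change of -0.63 and hepatocyte markers one of 0.11, and in the 30 libraries -0.16 and -0.33; their part in the members' change was not tested.

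**Figure D1:**
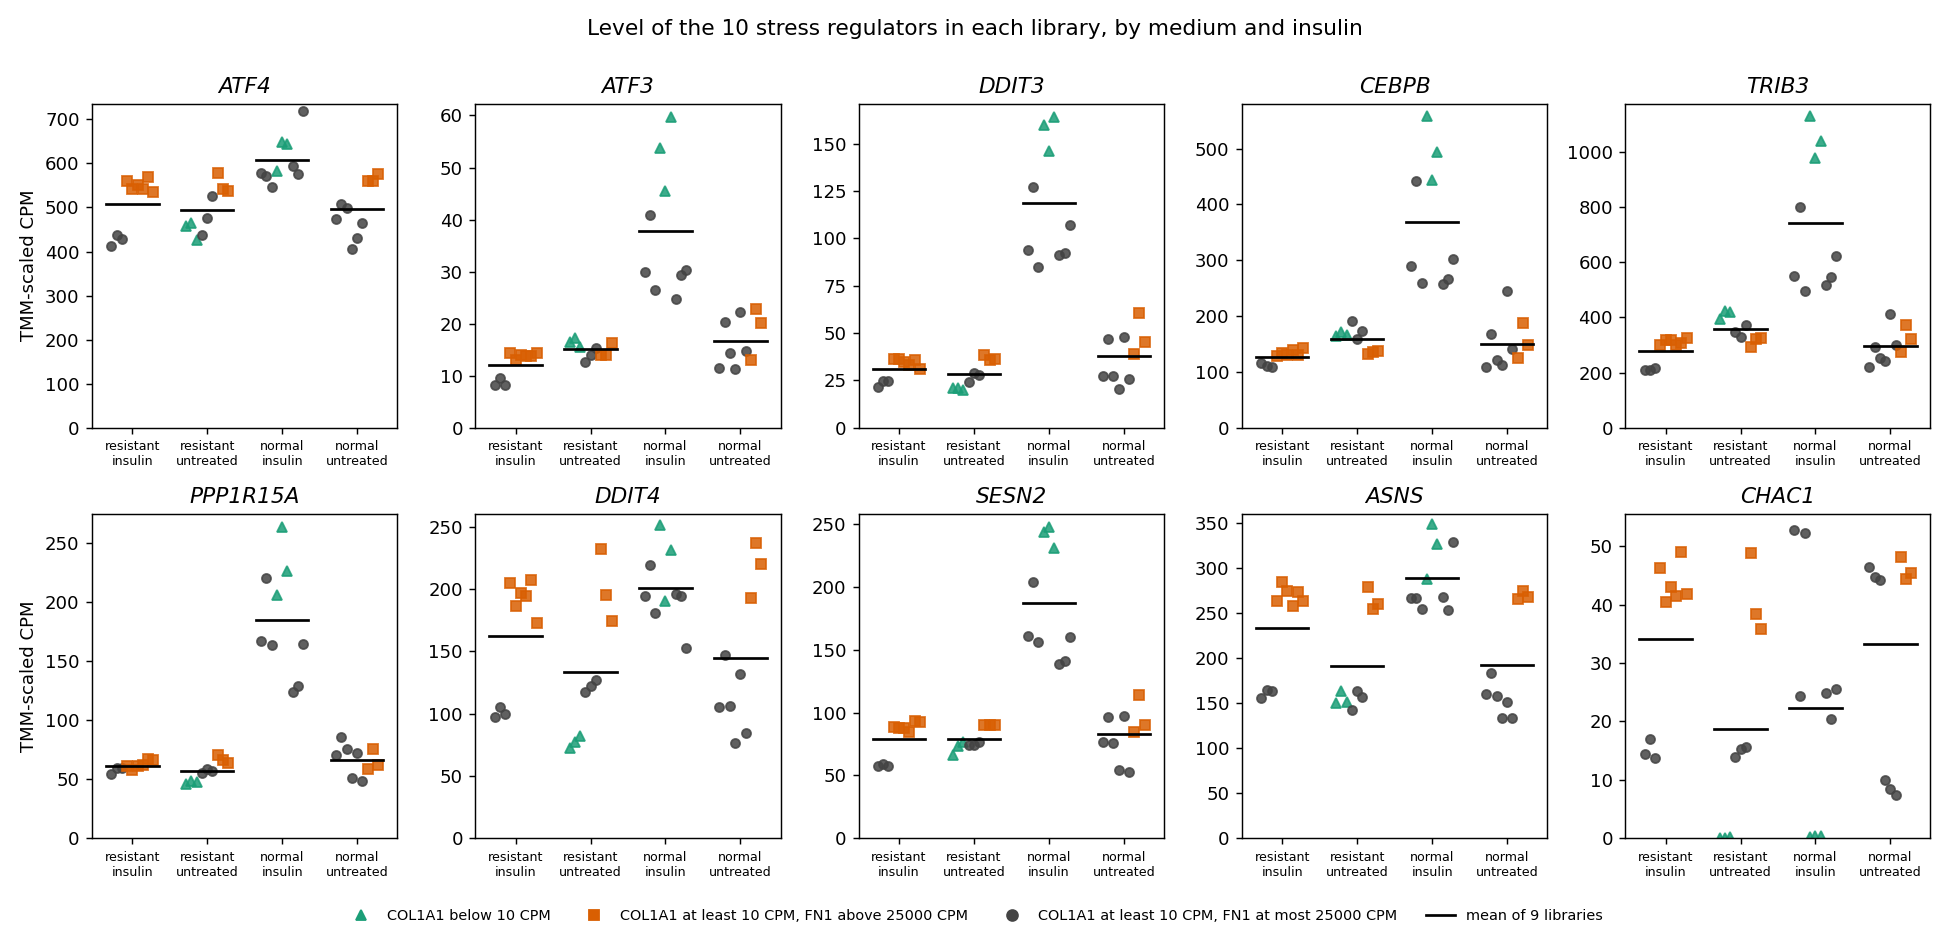
Level of each member in TMM-scaled CPM (y axis, from 0) in each of 36 libraries, by group, with the group mean as a line and the kind of library as colour and shape. For ATF3, DDIT3, CEBPB, TRIB3, PPP1R15A and SESN2 all 9 libraries of insulin-stimulated cells in normal medium lie above all libraries of the other 3 groups, and CHAC1 is near 0 in the 6 libraries with COL1A1 below 10 CPM.

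DDIT3 (ENSG00000175197) encodes CHOP, a C/EBP family factor that pairs with other bZIP proteins and is a classical marker of endoplasmic reticulum stress. Its level, in TMM-scaled CPM here and for all member levels, was 85.1 to 164 (median 107) in insulin-stimulated and 20.2 to 60.5 (median 39.1) in untreated cells of normal medium. The groups did not overlap, and the mean was 119 ± 31.4 against 37.8 ± 13.4 (SD, n = 9 each). The log2 fold change was 1.65 ± 0.19 (SE, adjusted p 1.94e-08 in edgeR), and 1.30 ± 0.17 in the 30 libraries. The 3 highest values, 146 to 164, were those of the insulin-stimulated libraries with COL1A1 below 10 CPM; the other 6 were at 85.1 to 127. Within batch dates the change was 1.30 ± 0.28 for 22 April, 1.48 ± 0.29 for 11 April and 2.17 ± 0.35 for 24 May, called in each. Each date held an insulin-stimulated library with COL1A1 below 10 CPM. DDIT3 overlaps MARS1, which encodes methionyl-tRNA synthetase, in the annotation, and the strand setting of the counting is not given in the sources used here, so reads could have been split between them.

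ATF3 (ENSG00000162772), a bZIP factor induced by ATF4 that also acts as a repressor in many settings, was at 24.8 to 59.7 CPM (median 30.4) in insulin-stimulated and 11.2 to 22.8 CPM (median 14.8) in untreated cells. Every stimulated library lay above every untreated one, and the log2 fold change was 1.19 ± 0.16 (adjusted p 3.34e-07 in edgeR) and 0.79 ± 0.15 in the 30 libraries. Within the 11 April batch it was 1.08 ± 0.32 and was not called (adjusted p 0.0871 in edgeR).

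CEBPB (ENSG00000172216) encodes C/EBPβ, a liver factor of the acute phase and of gluconeogenesis that can pair with ATF4. It was at 257 to 558 CPM (median 303) in insulin-stimulated and 108 to 244 CPM (median 141) in untreated cells, again without overlap. Its change on the log2 scale was 1.31 ± 0.13 (adjusted p 3.76e-09 in edgeR) and 0.96 ± 0.12 in the 30 libraries. It shares its locus with the antisense gene CEBPB-AS1, so the same uncertainty of strand applies.

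TRIB3 (ENSG00000101255) encodes a pseudokinase that is a CHOP and ATF4 target and can bind AKT, a kinase of the insulin pathway. Its level was 495 to 1130 CPM (median 624) with insulin and 221 to 411 CPM (median 292) without. The 3 libraries with COL1A1 below 10 CPM had 979 to 1130 CPM, above the 495 to 802 CPM of the other 6 stimulated libraries, and all 9 were above the untreated ones. The log2 fold change was 1.33 ± 0.14 (adjusted p 1.09e-08 in edgeR) and 0.92 ± 0.11 in the 30 libraries.

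PPP1R15A (ENSG00000087074) encodes GADD34, the phosphatase subunit that removes phosphate from eIF2 and so lets translation restart. It was at 124 to 263 CPM (median 167) in insulin-stimulated and 48.1 to 85.8 CPM (median 70.5) in untreated cells. No stimulated library reached down to an untreated one, and the log2 fold change of 1.47 ± 0.12 (adjusted p 1.47e-10 in edgeR) was 1.16 ± 0.11 in the 30 libraries. SESN2 (ENSG00000130766), a leucine sensor that restrains mTORC1, was at 139 to 248 CPM (median 161) with insulin and 52.9 to 114 CPM (median 84.9) without, also with no overlap. Its log2 fold change was 1.18 ± 0.14 (adjusted p 4.86e-08 in edgeR) and 0.85 ± 0.14 in the 30 libraries.

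These 6 genes, ATF3, DDIT3, CEBPB, TRIB3, PPP1R15A and SESN2, were the members whose stimulated and untreated libraries did not overlap, where 6.63% of all genes were higher without overlap. The count was 6 again in the 30 libraries, against 7.43% of genes, and 9 in the 18 libraries, against 10.2%. The members gained in the 18 were ATF4, ASNS and DDIT4. From this comparison the FN1 limit took only untreated replicates 7 to 9, the highest untreated libraries for those genes. The rise to 9 follows from that limit, which was added after the data were seen, and is no further check. Within batch dates, 6 members were called higher on 22 April among 338 genes, 4 on 11 April among 635 and 9 on 24 May among 3346. The dates held few libraries. On 11 April these were insulin-stimulated replicates 6 and 9 and untreated replicates 2 and 9. On 24 May they were insulin-stimulated replicates 2 and 4 and untreated replicates 4 to 6. Each date held an insulin-stimulated library with COL1A1 below 10 CPM: replicate 5 on 22 April, 6 on 11 April and 4 on 24 May. Among untreated cells of normal medium, replicates 2, 5 and 8 had the highest value of their set of 3 for all 6 genes: for DDIT3 they read 47.1, 47.9 and 60.5 CPM, beside 20.2 to 45.3 CPM in the other 6. Batch dates do not separate these replicates from the rest, and what sets them apart was not tested.

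ATF4 (ENSG00000128272) had a smaller log2 fold change than 8 of the other 9 members, a difference that was not tested. It was at 546 to 720 CPM (median 583) with insulin and 406 to 575 CPM (median 498) without, and the groups overlapped. The mean was 607 ± 54.0 against 497 ± 60.1 (SD, n = 9 each). The log2 fold change was 0.28 ± 0.07 (adjusted p 0.00192 in edgeR), but 0.13 ± 0.07 in the 30 libraries (adjusted p 0.142). The call was lost in 24 of 36 fits that each left out 1 library, with changes of 0.14 to 0.29 over all 36. In insulin-resistant medium these were insulin-stimulated replicates 2 and 4 to 9 and untreated replicates 1 and 4 to 9; in normal medium they were insulin-stimulated replicates 2, 4, 5 and 6 and untreated replicates 4 to 9. In the 18 libraries it was 0.32 ± 0.07 (adjusted p 0.00246 in edgeR). The 3 untreated libraries with high FN1 had 561 to 575 CPM and the other 6 had 406 to 507 CPM. The annotation holds 4 ATF4 pseudogenes, and how reads were divided between ATF4 and them is not given in the sources used here.

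ASNS (ENSG00000070669), asparagine synthetase, is a textbook ATF4 target. It was at 254 to 349 CPM (median 268) in insulin-stimulated and 134 to 275 CPM (median 160) in untreated cells. The untreated libraries fell into 134 to 184 CPM in 6 of them and 266 to 275 CPM in the 3 with high FN1, so the overlap came from those 3. The log2 fold change was 0.58 ± 0.15 (adjusted p 0.00192 in edgeR), 0.37 ± 0.14 in the 30 libraries (adjusted p 0.0412) and 0.78 ± 0.06 in the 18. The call was lost within the 22 April and 11 April batches. It was also lost with each set of 3 replicates summed, over all libraries and over the 30. ASNS has 5 pseudogenes and an overlapping lncRNA, CZ1P-ASNS, and reads may be shared with them.

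DDIT4 (ENSG00000168209), also known as REDD1, an inhibitor of mTORC1 that also responds to hypoxia and glucocorticoids, was at 153 to 251 CPM (median 194) with insulin and 76.4 to 237 CPM (median 132) without. Its log2 fold change of 0.49 ± 0.23 was not called (adjusted p 0.0958 in edgeR). With the replicate number as a block it was 0.56 ± 0.19 and was called (adjusted p 0.0253 in edgeR). It was also called in the 18 libraries, at 0.78 ± 0.14 (adjusted p 0.000626 in edgeR), but not with each set of 3 replicates summed to 1, at 0.39 ± 0.39 (adjusted p 0.714 in edgeR). Here too the 3 untreated libraries with high FN1 were the highest of their group, at 193 to 237 CPM against 76.4 to 147 CPM. Within batch dates the change was 0.15 ± 0.34 for 22 April, -0.01 ± 0.43 for 11 April and 1.23 ± 0.22 for 24 May, and only the last was called.

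CHAC1 (ENSG00000128965) encodes a glutathione-degrading enzyme that lies downstream of ATF4, ATF3 and CHOP, and it did not follow the other members. Its levels were 20.5 to 52.8 CPM in 6 insulin-stimulated libraries and 0.31 to 0.34 CPM in the 3 with COL1A1 below 10 CPM, where it had 11 to 22 counts. Untreated cells of normal medium had 7.40 to 48.1 CPM. The log2 fold change was -0.53 ± 0.83 (adjusted p 0.69 in edgeR) in 36 libraries and 0.00 ± 0.30 in the 30, with an interval wide enough to hold a change in either direction.

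In every group that had libraries with COL1A1 below 10 CPM, CHAC1 was near 0 in them. In the 3 such libraries of untreated cells in insulin-resistant medium it had 3, 3 and 5 counts, or 0.089 to 0.146 CPM. In the 12 libraries with high FN1 it was at 35.9 to 49.0 CPM, over the 3 groups that had such libraries. The 18 remaining libraries spanned 7.40 to 52.8 CPM, a range that holds that of the high-FN1 libraries. Within them the sets of 3 replicates differed: untreated cells of normal medium had 44.2 to 46.5 CPM of CHAC1 in replicates 1 to 3 but 7.40 to 10.0 CPM in replicates 4 to 6. Stromal markers are given beside CHAC1 for a chosen pair of these sets, which also differed in insulin. Insulin-stimulated replicates 7 to 9 of normal medium had 20.5 to 25.5 CPM of CHAC1 with a median stromal marker at 608 to 663 CPM, while untreated replicates 1 to 3 of that medium had the 44.2 to 46.5 CPM above with one at 322 to 353 CPM. The summed stromal markers were at 152 to 196 CPM in the libraries where CHAC1 was near 0, and whether cells that carry them were its source was not tested. No other member came near 0 in the 6 libraries: in untreated cells of insulin-resistant medium, DDIT3 was at 19.8 to 21.0 CPM in the 3 libraries without them and 24.3 to 38.6 CPM in the 6 with them.

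**Figure D2:**
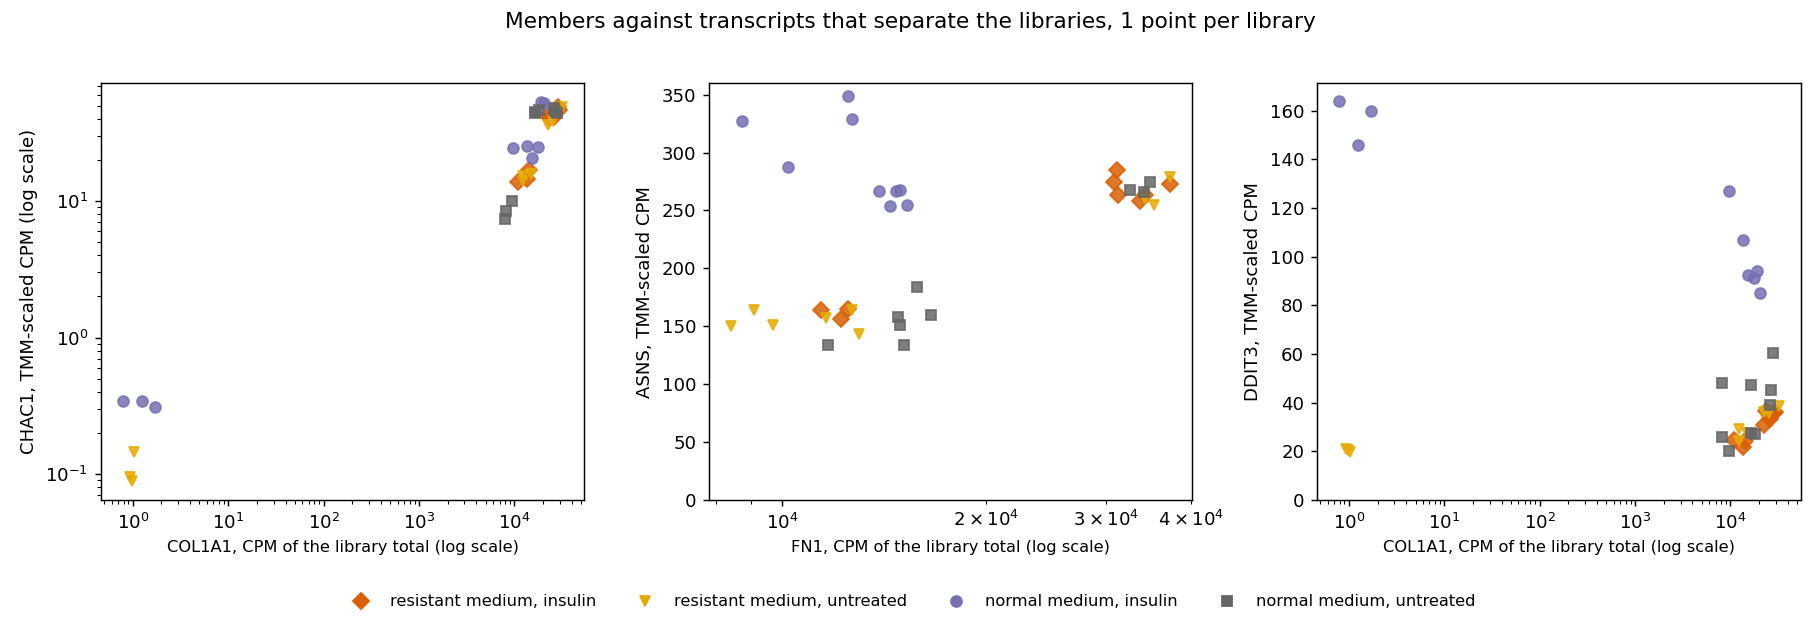
CHAC1 against COL1A1 (both log scales), ASNS against FN1 and DDIT3 against COL1A1 (log x axes), in CPM, with 1 point per library and 1 symbol per group. CHAC1 is below 1 CPM in the 6 libraries with COL1A1 at 0.784 to 1.70 CPM, ASNS is at 255 to 285 CPM in all 12 libraries with high FN1, and DDIT3 is at 85.1 CPM or more only in insulin-stimulated cells of normal medium, on both sides of the COL1A1 gap.

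In insulin-resistant medium, insulin changed no member at an adjusted p under 0.05. None of the 17983 genes was called either (0%), although 4490 had an unadjusted p under 0.05 in edgeR, and DESeq2 called 89 genes and no member. Leaving out untreated replicate 7 of this medium gave 2008 genes and leaving out its untreated replicate 9 gave 965, with 0 members in either fit. DDIT3 was at 21.6 to 36.4 CPM (median 33.2) in insulin-stimulated and 19.8 to 38.6 CPM (median 27.6) in untreated cells, with a log2 fold change of 0.03 ± 0.20 whose approximate 95% interval ran from -0.36 to 0.42. PPP1R15A was at 54.4 to 66.8 CPM with insulin and 46.0 to 70.6 CPM without, a log2 fold change of 0.05 with an interval of -0.21 to 0.31. Both upper bounds lie below the lower bounds of the intervals in normal medium, 1.29 for DDIT3 and 1.23 for PPP1R15A. Within batch dates the change of DDIT3 was -0.08 for 22 April and 0.19 for 11 April, and no member was called in either. ATF3, TRIB3 and CEBPB had negative log2 fold changes of -0.41, -0.40 and -0.28 (adjusted p 0.133, 0.121 and 0.211 in edgeR). With only these 2 groups in the fit, these 3 genes were called lower, among 4012 genes called. With each set of 3 replicates summed, no gene was called, and TRIB3 had -0.40 ± 0.25 (adjusted p 0.76 in edgeR). The 3 untreated libraries with COL1A1 below 10 CPM had the highest TRIB3 of both groups, 396 to 424 CPM, against 208 to 327 CPM in all 9 insulin-stimulated libraries; without them the change was -0.21 ± 0.13. The remaining members, ATF4, DDIT4, SESN2, ASNS and CHAC1, had log2 fold changes of -0.09 to 0.48.

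Insulin-stimulated cells of this medium split by FN1. ASNS was at 156 to 165 CPM in replicates 1 to 3 and 258 to 285 CPM in replicates 4 to 9, which had high FN1, and DDIT4 at 97.0 to 105 and 173 to 207 CPM. The untreated cells split in the same way, with ASNS at 143 to 164 CPM in replicates 1 to 6 and 255 to 279 CPM in replicates 7 to 9. In each group with a high-FN1 set, ATF4, ASNS and DDIT4 were higher in that set than in every other library of the group. Which cells gave FN1 and whether they bear on these 3 genes was not tested. In the 18 libraries, with 3 in each of these groups, 6 members were lower with insulin without overlap against 23.8% of genes, and 0 were called, against 2.13% of genes. There the insulin-stimulated libraries were replicates 1 to 3, dated 22 or 11 April, and the untreated ones replicates 4 to 6, dated 24 May. The count without overlap has no batch term, so in it insulin and batch date cannot be told apart. In the fit, the term for 24 May rested on cells of normal medium. In the 30 libraries 0 members and 0% of genes were called.

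Between the media in untreated cells, 0 of the 10 members were called, although 21.9% of all genes were. That is 2385 genes higher and 1551 lower in insulin-resistant medium, or 3662 and 400 with libraries scaled to hepatocyte genes. DDIT3 was at 19.8 to 38.6 CPM in insulin-resistant and 20.2 to 60.5 CPM in normal medium, a log2 fold change of -0.42 ± 0.18 (adjusted p 0.103 in edgeR). The change was called when replicate 7 of insulin-resistant or replicate 4 of normal medium was left out, and ran from -0.52 to -0.29 over the 36 fits that each left out 1 library. Within the batches of 22 April, 11 April and 24 May it was -0.44, -0.69 and -0.23, not called. TRIB3 was at 293 to 424 CPM and 221 to 411 CPM (0.27, adjusted p 0.184 in edgeR). PPP1R15A had a log2 fold change of -0.22, and ATF4, ASNS, SESN2, CEBPB, DDIT4 and ATF3 had values of -0.15 to 0.08. For ATF4 the 95% interval was -0.14 to 0.13, while that of CHAC1, -2.22 to 1.12, leaves large changes possible in either direction. The 30 libraries again gave 0 called members, against 26.7% of genes, and so did the 18, against 16.7%.

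Among insulin-stimulated cells, 8 of 10 members were called lower in insulin-resistant than in normal medium, where 26.3% of genes were called lower and 12% higher. That is 4733 and 2154 genes, or 3846 and 3118 with DESeq2's size factors and 611 and 6700 with libraries scaled to hepatocyte genes. This comparison shares the insulin-stimulated libraries of normal medium with the first, so the values are not independent of it. The groups also differed in kind of library. High FN1 was seen in 6 of the 9 libraries of insulin-resistant medium, and COL1A1 below 10 CPM in 3 of the 9 of normal medium. Over the 36 libraries the medium and the kind of library cannot be fully told apart. The median log2 fold change was -1.39 over the members and -0.01 over all genes. DDIT3 was at 21.6 to 36.4 CPM in insulin-resistant and 85.1 to 164 CPM in normal medium, a change of -2.04 ± 0.20 (adjusted p 1.53e-09 in edgeR), and -1.76 ± 0.19 in the 30 libraries. Within 22 April it was -1.81 and within 11 April -1.99. ATF3 was at 8.18 to 14.3 CPM and 24.8 to 59.7 CPM (-1.75, adjusted p 1.32e-09 in edgeR). PPP1R15A was at 54.4 to 66.8 and 124 to 263 CPM (-1.64, adjusted p 4.78e-11 in edgeR). CEBPB, TRIB3 and SESN2 had changes of -1.52, -1.45 and -1.33, with ranges of 109 to 142, 208 to 327 and 57.9 to 93.3 CPM in insulin-resistant medium. These 6 genes did not overlap between the media, where 10.2% of genes were lower without overlap, and in the 30 libraries 6 members did not, against 10.9%. There 7 members were called, against 18.2% of genes. ATF3, DDIT3, CEBPB, TRIB3, PPP1R15A and SESN2 kept their call in the 30 libraries, within the batches of 22 April and 11 April, and with each set of 3 replicates summed to 1.

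ATF4 was at 413 to 570 CPM in insulin-resistant and 546 to 720 CPM in normal medium with insulin, and its log2 fold change was -0.33 ± 0.07 (adjusted p 0.000573 in edgeR), though 0.19 with libraries scaled to hepatocyte genes, where the median gene was at 0.49. It also lost its call within the 22 April (-0.25) and 11 April (-0.29) batches and with each set of 3 replicates summed, at -0.15 over all libraries and -0.14 over the 30. ASNS was at 156 to 285 CPM and 254 to 349 CPM (-0.49 ± 0.16, adjusted p 0.0144 in edgeR), and 0.05 under that scaling. It lost its call in the 30 libraries, at -0.36 ± 0.15 (adjusted p 0.0651 in edgeR), and in 10 of the 36 fits that each left out 1 library (-0.51 to -0.34). These left out replicates 1, 2, 3, 6, 7 or 9 of insulin-stimulated or replicate 9 of untreated cells in insulin-resistant medium, or replicates 4 or 5 of insulin-stimulated or replicate 9 of untreated cells in normal medium. In the 18 libraries, with 3 against 6, it was -0.78 ± 0.07 and ATF4 was -0.50 ± 0.08, and all 10 members were called lower (21.2% of genes) and did not overlap (20.2% of genes). CHAC1 was among them, at 13.8 to 17.0 CPM in insulin-resistant and 20.5 to 52.8 CPM in normal medium, a change of -1.41 ± 0.40 (adjusted p 0.0146 in edgeR). Over 36 libraries its value was 0.46 with no call. From this comparison the FN1 limit took only insulin-stimulated replicates 4 to 9 of insulin-resistant medium. They were the highest of their group for ATF4, ASNS, DDIT4 and CHAC1. The rise to 10 members came with that limit, which was added after the data were seen, and is no further check. DDIT4 was at 97.0 to 207 and 153 to 251 CPM (-0.43, adjusted p 0.183 in edgeR). Stromal markers had a median log2 fold change of 0.86 and hepatocyte markers one of -0.68 in this comparison, with 17 of 22 hepatocyte markers lower; in the 30 libraries the medians were 0.14 and -0.19. Their part in the members' change was not tested.

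**Figure D3:**
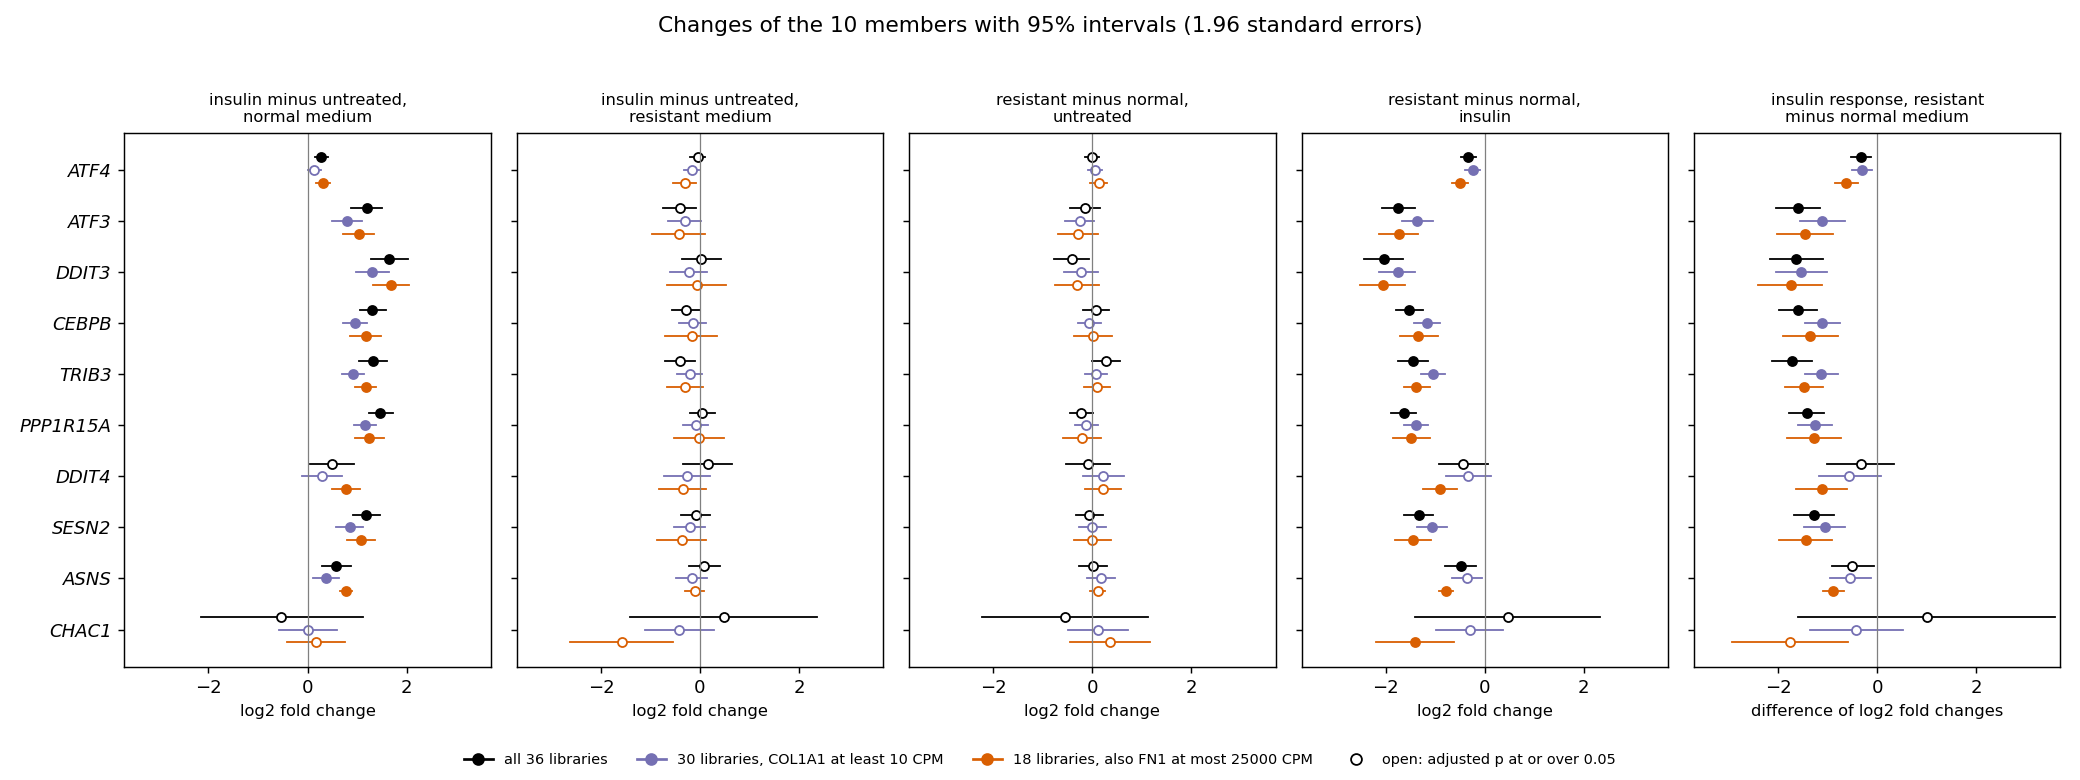
Log2 fold change of each member (x axis) in the 5 comparisons, with 95% intervals, in 36, 30 and 18 libraries; filled points have an adjusted p under 0.05. In the first panel 8 members are filled above 0 in 36 libraries, no member is filled in the next 2, and 8 and 7 are filled below 0 in the last 2.

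The insulin response itself was compared between media in 1 model. The difference of log2 fold changes, insulin-resistant minus normal medium, was below 0 and called for 7 of 10 members, where 23.5% of genes were called below 0 and 6.22% above. The split of 4233 and 1119 genes became 3252 and 1840 with DESeq2's size factors and 1035 and 1000 with libraries scaled to hepatocyte genes. The libraries are those of the comparisons above. The differences were -1.72 ± 0.21 for TRIB3, -1.63 ± 0.27 for DDIT3, -1.60 for both ATF3 and CEBPB, -1.42 for PPP1R15A, -1.28 for SESN2 and -0.33 for ATF4 (adjusted p 4.27e-07 to 0.0146 in edgeR). ASNS, at -0.50, was not called (adjusted p 0.083), nor were DDIT4 at -0.33 and CHAC1 at 1.00. In the 30 libraries the same number, 7, was called against 9.37% of genes, and in the 18 libraries 9 against 12.2%. The members gained in the 18 were ASNS and DDIT4. The FN1 limit took the libraries highest for both genes in each group that had high-FN1 libraries. It left 3 libraries in each group of insulin-resistant medium, of different batch dates. The gain came with that limit, which was added after the data were seen, and is no further check. Within the 22 April batch no member was called, but only 4 genes were; within the 11 April batch 3 members were, among 636 genes; and with sets of 3 replicates summed no member was, among 5 genes. The differences within the batches remained at -1.41 and -1.46 for ATF3 and -1.41 and -1.49 for CEBPB. The 24 May batch had no insulin-stimulated library of insulin-resistant medium. ATF4 lost this call in 26 of 36 fits that each left out 1 library (-0.34 to -0.19): the 24 named above for its insulin response and those without insulin-stimulated replicates 1 and 3 of insulin-resistant medium. Stromal markers had a median difference of 1.12 and hepatocyte markers one of -0.62, and in the 30 libraries -0.15 and 0.28.

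The members fell into patterns over the 12 sets of 3 consecutive replicates, which were chosen as units because libraries within a set resembled each other (median correlation of deviations 0.869 over 36 pairs, against 0.202 over 108 other pairs of a group). As a description, CEBPB and TRIB3 had a Pearson r of 0.977 across the 12 means, DDIT3 and SESN2 0.972, and DDIT3 and PPP1R15A 0.966. ASNS had 0.944 with DDIT4 and 0.943 with ATF4, but 0.472 with CEBPB. CHAC1 had -0.498 to 0.406 with the other members. These means share the 4 groups and the kinds of library, which alone can bring genes together.

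**Figure D4:**
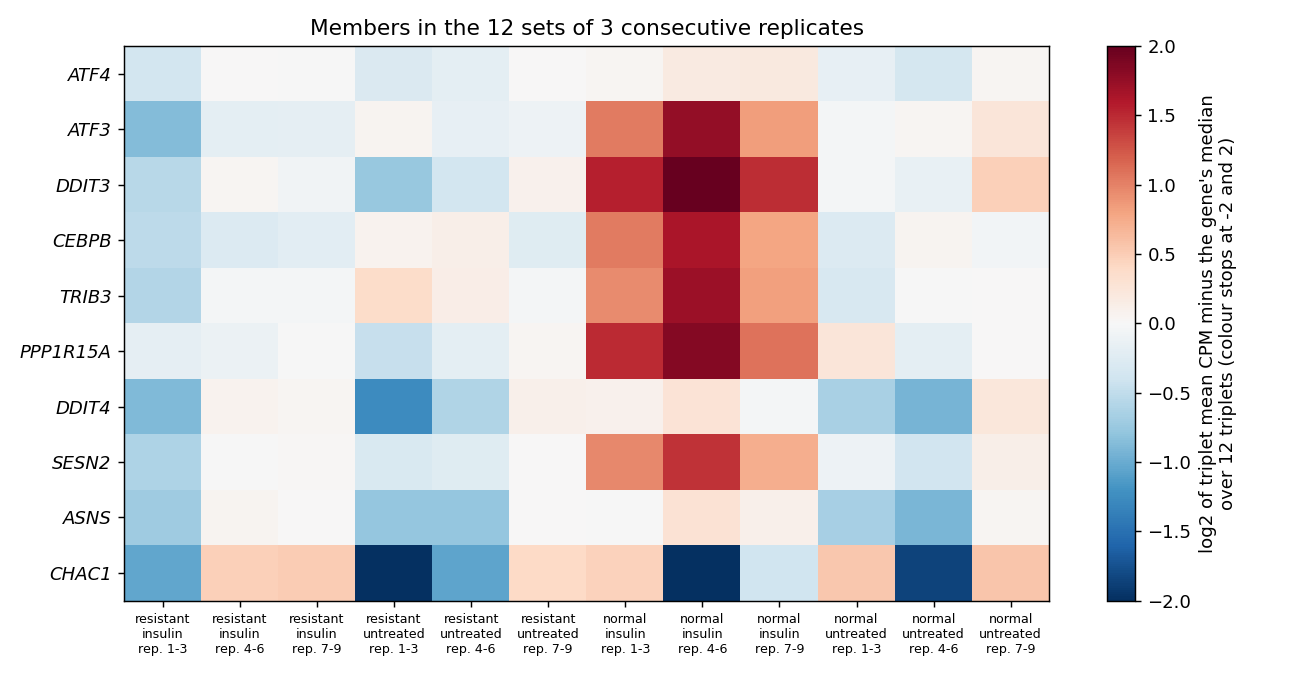
Log2 of the mean level of each set of 3 consecutive replicates minus the gene's median over the 12 sets, as colour, with the 10 members in rows and the sets in columns by group. The 3 sets of insulin-stimulated cells in normal medium are the highest 3 for ATF3, DDIT3, CEBPB, TRIB3, PPP1R15A and SESN2, while ATF4, DDIT4 and ASNS are also high in the sets with high FN1 and CHAC1 is lowest in the 2 sets with COL1A1 below 10 CPM.

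Among 11424 genes with a mean of at least 5 CPM, those whose 12 means were most like ATF4 were XPOT, a tRNA export factor (r 0.967), TMEM39A (0.958) and MARS1 (0.954). Those most like DDIT3 were ZNF777 and CD55 (0.983 each) and ZFAS1 (0.980). Those most like TRIB3 were SF1 (0.988), the glucose transporter gene SLC2A1 (0.984) and PLEKHH2 (0.984).

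Upstream of ATF4, 5 of 12 genes of eIF2 phosphorylation were called higher with insulin in normal medium and 1 was lower, where 24.9% and 10.2% of all genes were. EIF2AK3, the PERK gene, was at 61.7 ± 14.2 CPM with insulin and 32.9 ± 3.05 CPM without (SD, n = 9 each), a log2 fold change of 0.90 that was 0.58 in the 30 libraries. DNAJC3, which encodes an inhibitor of these kinases, was at 218 ± 60.9 and 86.3 ± 9.33 CPM (1.33, and 1.03 in the 30 libraries). EIF2S1, the phosphorylated subunit, had 0.43 and PPP1R15B, the constitutive paralog of PPP1R15A, 0.51. EIF2AK4, the GCN2 gene, had -0.30. In the 30 libraries 4 of the 12 were higher and 3 lower, where 15.4% and 18.1% of all genes were.

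Among 32 further ATF4 targets, 21 were called higher and 0 lower with insulin in normal medium (median log2 fold change 0.46), and 17 higher and 1 lower in the 30 libraries. Of all genes, 24.9% were called higher and 10.2% lower in the 36 libraries, and 15.4% and 18.1% in the 30. AARS1, alanyl-tRNA synthetase, had 0.83, CTH, the cystathionine cleaving enzyme, 1.52, GDF15, a stress hormone, 1.68, and SHMT2, the mitochondrial serine hydroxymethyltransferase, 0.74. GDF15 was at 488 ± 196 CPM with insulin and 158 ± 50 CPM without (SD, n = 9 each). In insulin-resistant medium it was at 132 ± 11.6 CPM with insulin and 221 ± 47.8 CPM without, and the response differed between media by -2.36 on the log2 scale. In that difference 18 of the 32 were called below 0 and 1, PHGDH at 0.28, above, where 23.5% and 6.22% of all genes were. Of the members' partners in the bZIP family, 6 of 12 were called higher with insulin in normal medium, against 24.9% of all genes. Among them were NFIL3 (1.29), CEBPG (0.59), CEBPA (0.51), ATF5 (0.41) and JUND (0.28). The 30 libraries gave 3, against 15.4% of genes, and there NFIL3 had 0.89, CEBPG 0.34 and ATF5 0.29.

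The IRE1 and ATF6 branches of the unfolded protein response had 14 of 15 genes called higher with insulin in normal medium, in 36 and in 30 libraries, with medians of 1.32 and 1.05. Of all genes, 24.9% and 15.4% were called higher in these libraries. SDF2L1, MANF, HYOU1 and HSPA5, which encode chaperones or chaperone-associated proteins of the endoplasmic reticulum, had 2.03, 1.76, 1.93 and 1.91. HSPA5, the gene of BiP, was at 4350 ± 1620 CPM with insulin and 1160 ± 196 CPM without (SD, n = 9 each), and at 1220 ± 279 and 1180 ± 151 CPM in insulin-resistant medium. XBP1 was the exception, at 0.20 (adjusted p 0.117 in edgeR). For the difference between media 14 of the 15 were called below 0 and 0 above, where 23.5% and 6.22% of all genes were. Of 6 CHOP and cell death genes, 3 were called higher with insulin in normal medium, TNFRSF10B (1.17), BBC3 (0.42) and ERO1A (0.35), against 24.9% of all genes. In the 30 libraries only TNFRSF10B was higher (0.82), while BCL2L11 was lower (-0.44). There 15.4% of all genes were called higher and 18.1% lower, so these counts lie near the shares over all genes.

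**Figure D5:**
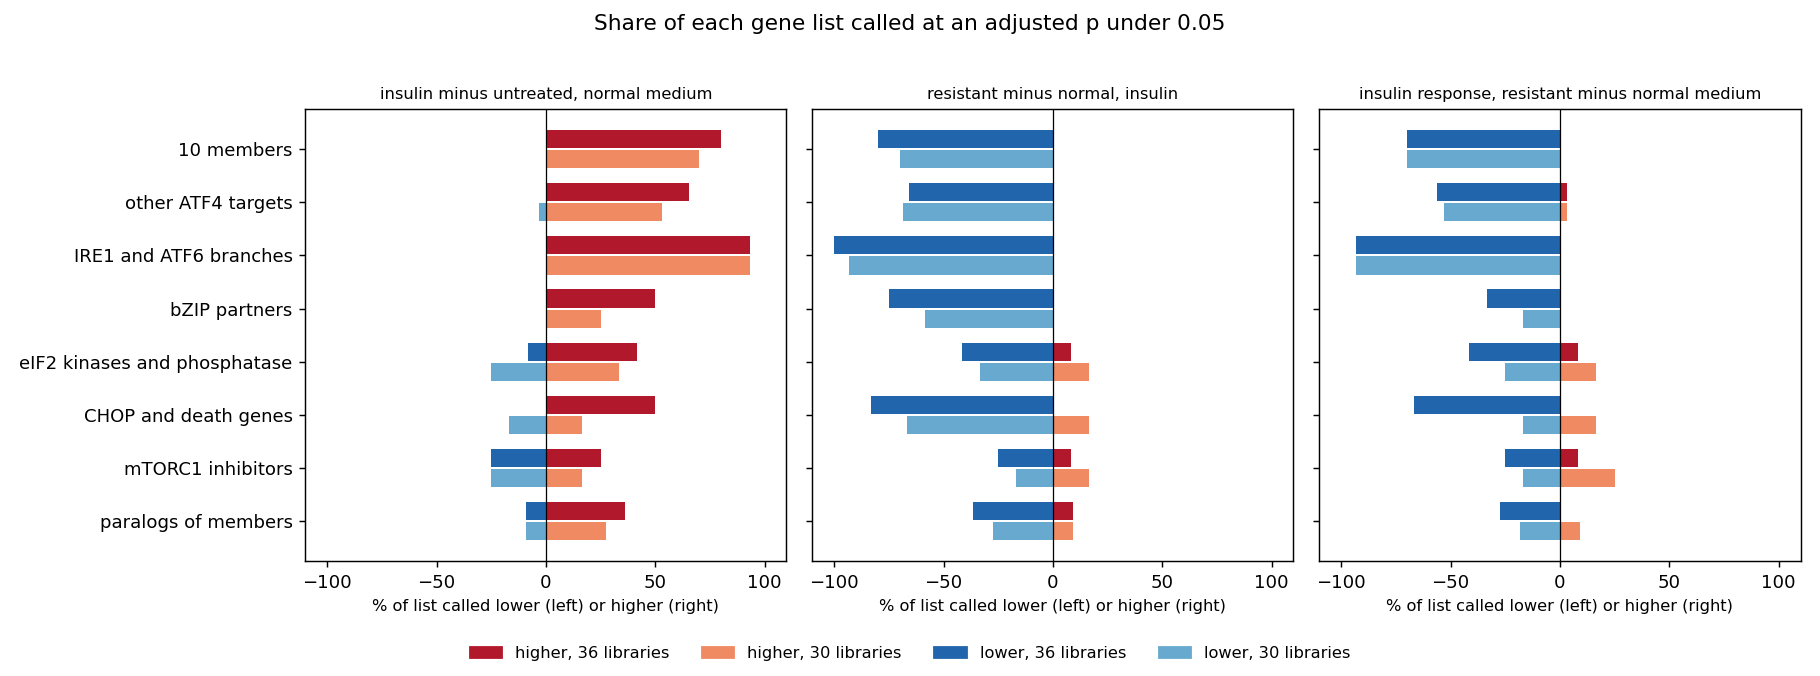
Percentage of each gene list (rows) called higher, to the right, or lower, to the left, in 3 comparisons, in 36 libraries (dark) and 30 libraries (light). The bars of the members, the other ATF4 targets and the IRE1 and ATF6 branches point right for insulin in normal medium and mainly left in the other panels, and the mTORC1 inhibitors have bars on both sides.

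Besides DDIT4 and SESN2, 12 other genes that restrain mTORC1 or its output gave 3 called higher and 3 lower with insulin in normal medium. Of all genes, 24.9% were called higher, close to the share of this list, and 10.2% lower. DEPTOR, an mTOR-binding inhibitor, was at 0.514 ± 0.139 CPM with insulin and 1.26 ± 0.154 CPM without (SD, n = 9 each; -1.28, and -1.48 in the 30 libraries). DEPDC5 had 0.60, NPRL3 0.20 and EIF4EBP1, a translation repressor and ATF4 target, 0.49. Paralogs of the members went different ways. TRIB1 had 1.27, PPP1R15B 0.51, CEBPA 0.51 and ATF5 0.41, and SESN3 was lower at -0.58. TRIB2 (-0.41), CEBPD (-0.05), JDP2 (0.00), SESN1 (-0.07), DDIT4L (-0.14) and CHAC2 (0.36) were not called. SESN2 and SESN3, of 1 family, were thus called in opposite directions, and in the 30 libraries they had 0.85 and -0.84.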

How the data were processed

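RNA of 36 libraries was poly-A selected and prepared with a strand-specific kit, per the labels' protocols. The submitters' processing notes name GRCh37, Salmon and STAR without roles or versions. For the counting, no strand setting is given in the sources used here. The deposited table holds expected counts per Ensembl gene for 57771 genes, of which 15.5% of values were not whole and 24214 genes were at 0 in every library. They were rounded to whole numbers. Symbols were matched for 51994 identifiers (90.0%), and 166 of 167 list entries were found.

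Genes passing edgeR's filter by group (17983) were tested in R 4.3.3 by the robust quasi-likelihood F-test of edgeR 4.0.16 (libraries scaled by TMM, 1 term per group and a term for the batch date of the labels), with Benjamini-Hochberg adjustment over all of them and a threshold of 0.05. Levels are TMM-scaled CPM, while marker levels and the limits of 10 CPM for COL1A1 and 25000 CPM for FN1 use the library total. Totals were 26.6M to 116.8M counts. Alternatives were other scalings, filters, covariates, batches and units of replication, DESeq2 1.42.0, and leaving out libraries; the set of 18 libraries and the sums of 3 replicates without the COL1A1-low libraries were added after the data were seen. The fits were tested on simulated data.

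The members and gene lists were chosen with earlier results of these data known. All members are named, and from each list the 4 genes with the smallest adjusted p and any paralog of a member; genes named beside these to complete a small count (EIF2AK4, PHGDH, BCL2L11, XBP1) were chosen after their values were seen. No replicate pair agreed within sampling noise (lowest chi-square per gene 3.99). For insulin in normal medium, libraries with the same replicate number deviated together in all 9 pairs (correlation 0.192 to 0.509). Only 3 of the 9 correlated best with the library of their own number, so the numbers are not shown to mark pairs. The labels give no pairs either. The replicate number was a block only in an alternative fit, and the main fit had no term for it. In the other comparisons fewer pairs deviated together. Promoters are those of RefSeq on GRCh38.p14, and motifs were searched on both strands.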

Additional observations from a re-analysis of the deposited data

Results flagged for a closer look

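The insulin response differed between insulin-resistant and normal medium for 7 members, by the test of the difference itself in edgeR, where 23.5% of all genes were called below 0. On the log2 scale the response in insulin-resistant minus that in normal medium was -1.72 for TRIB3, -1.63 for DDIT3, -1.60 for ATF3, -1.60 for CEBPB, -1.42 for PPP1R15A, -1.28 for SESN2 and -0.33 for ATF4. No member was called within the 22 April batch or with sets of 3 replicates summed, where 4 and 5 genes were called in all, and ATF4 lost its call in 26 of 36 fits that each left out 1 library.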

How the results depend on the processing

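DDIT3, CEBPB, TRIB3 and PPP1R15A kept their direction and call for insulin in normal medium in all 17 alternatives (log2 fold changes of 1.30 to 2.17, 0.94 to 1.56, 0.91 to 1.58 and 1.16 to 1.87). ATF3 and SESN2 lost theirs within 11 April and with summed sets of 3 replicates without the COL1A1-low libraries. ATF4 lost it in 7 of the 17 and ASNS in 4. Between media with insulin, scaling to hepatocyte genes reversed ATF4 (0.19) and ASNS (0.05), and CHAC1 was -1.41 in the 18 libraries. With that scaling the median gene had a log2 fold change of 0.14 to 0.49 over the 5 comparisons. The cause was not tested for any of these.

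Fewer samples entered within a batch and with summed sets. Within 22 April, 950 genes were called for insulin in normal medium, 611 for the medium in untreated cells, 1105 for the medium with insulin, and 4 genes and 0 members for the difference of responses. Within 11 April these counts were 866 genes and 4 members, 375 genes, 2890 genes, and 636 genes and 3 members; within 24 May insulin in normal medium gave 6058 genes and the medium in untreated cells 1808. Summed sets of 3 gave 711 genes and 6 members, 485 genes, 944 genes, and 5 genes and 0 members. Without the COL1A1-low libraries they gave 1096 genes and 4 members, 610, 925, and 76 genes and 0 members. Insulin in insulin-resistant medium gave 4012 genes and 3 members with only the groups compared, 2063 genes without the batch term, 89 with DESeq2, 397 in the 18 libraries, and 4875 genes and 2 members with a term for the set of 3. That term and hepatocyte scaling gave 1 member each for the medium in untreated cells. The difference of responses gave 2035 genes with hepatocyte scaling and 3451 in the 18 libraries.

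With the replicate number as a block, insulin in insulin-resistant medium gave 2674 genes and 1 member, TRIB3 (-0.49, adjusted p 0.0469 in edgeR). With summed sets of 3 neither TRIB3 nor DDIT4 was called. In normal medium DDIT4 was gained by the block (0.56), and no other member's call changed there. For ASNS the difference of responses was called (-0.49). In the comparisons other than insulin in normal medium, 5, 5 and 2 of 9 pairs with the same number correlated over 0.1.

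Leaving out 1 library at a time gave 5135 to 6465 genes and 7 to 8 members for insulin in normal medium, and 0 to 2008 genes and 0 members in insulin-resistant medium, with 2008 genes without its untreated replicate 7 and 965 without replicate 9. It gave 3366 to 4250 genes and 0 to 1 members for the medium in untreated cells, 5745 to 7390 genes and 7 to 8 members with insulin, and 3990 to 6024 genes and 6 to 7 members for the difference. Depth limits CHAC1 where it had 3 to 22 counts.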
